A study of Mus musculus with 6 samples.

Results

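The genotype difference in regulatory T cells activated for 72 h was described gene by gene in 4 of the 6 RNA sequencing libraries of the series. Genes were chosen by their level: an Ensembl gene was described when its mean over the 4 libraries was at least 5 FPKM (fragments per kilobase of gene, scaled for library size, the deposited unit), which 9331 of 47069 genes reached. A gene could thus pass through its level in the libraries of 1 genotype alone. For each gene the log2 ratio of the library labelled cKO to the library labelled Het was taken from FPKM + 1 within each of the 2 deposited tables, and the question was where the 2 ratios agreed and where they did not. All mice carried a Cre recombinase driven by Foxp3, the gene that defines regulatory T cells. The genotype label of each library reads Foxp3Cre Noc4l+/fl for Het, with 1 floxed Noc4l allele, and Foxp3Cre Noc4lfl/fl for cKO (conditional knockout), with both alleles floxed. One passage of the labels gives both genotypes the same allele pair, so each library was grouped by its own genotype label. CD4+GFP+CD62Lhigh cells were sorted from lymph node and spleen after magnetic enrichment, then activated with Dynabeads, which are magnetic beads. Het 1 and cKO 2 were in the first table and Het 3 and cKO 4 in the second, and the series also has 1 library of each genotype at 48 h in the first table. The labels do not give the number of animals behind a library, so p-values measure only the spread between these libraries. Ages and sexes of the mice are not used here.

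Regulatory T cells restrain other immune cells, and their identity rests on the transcription factor Foxp3. Activation through the T cell receptor drives them to divide, switches on early response genes and surface receptors, and raises glucose uptake and glycolysis. Noc4l is a nucleolar protein that takes part in the maturation of ribosomal RNA for the small ribosomal subunit.

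Short promoter stretches are shown first for genes whose ratios agreed in the pairs, to show where 2 of the 12 motifs searched lie, the core of the hypoxia response element and a STAT-binding pattern. The stretches are from RefSeq on the GRCm38.p6 build and are 60 bases long, 5′ to 3′ on the strand of the gene. They end before the annotated start, and capitals mark the motif or its reverse complement. The first 4 are from genes lower in both libraries labelled cKO, with the core ACGTG, which overlaps the E-box CACGTG. Pygl is on the minus strand at chr12:70227783-70227842, P4ha2 on the plus strand at chr11:54100818-54100877, Bnip3 on the minus strand at chr7:138909582-138909641 and Slc16a3 on the plus strand at chr11:120949007-120949066. The other 2 are from interferon response factors higher in both, with the STAT-binding pattern TTCNNNGAA (GAS element). Irf1 is on the plus strand at chr11:53769898-53769957 and Irf8 on the plus strand at chr8:120736179-120736238.
Pygl: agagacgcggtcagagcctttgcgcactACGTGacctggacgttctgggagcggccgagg
P4ha2: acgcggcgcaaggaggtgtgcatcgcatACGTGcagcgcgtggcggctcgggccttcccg
Bnip3: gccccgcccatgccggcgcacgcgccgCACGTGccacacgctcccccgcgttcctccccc
Slc16a3: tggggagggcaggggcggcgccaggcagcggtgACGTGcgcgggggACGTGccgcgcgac
Irf1: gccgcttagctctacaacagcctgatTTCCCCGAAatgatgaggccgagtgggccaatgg
Irf8: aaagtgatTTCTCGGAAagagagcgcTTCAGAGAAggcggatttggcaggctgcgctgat

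Both strands of the 250 bases before to 50 bases after each start were searched. Of the genes at least 2-fold lower in both pairs, 56 of 73 matched a RefSeq entry by symbol, with 76 promoters, and of those at least 2-fold higher 83 of 117 matched, with 109. ACGTG was in 30 of the 76 promoters of the lower genes (39.5%) and in 16 of the 109 of the higher genes (14.7%). Among the 9270 promoters of all described genes the share was 26.5%, and among all 32851 RefSeq promoters 19.6%. TTCNNNGAA was in 10.1% of promoters of the higher genes, 3.95% of the lower and 6.7% of the described genes. The AP-1 pattern TGANTCA went the other way, with 4.59% of the higher, 11.8% of the lower and 4.4% of the described. The E-box CACGTG, which holds the first core, was in 5.5% of the higher, 14.5% of the lower and 10.3% of the described. An NF-kappaB pattern, GGG and TTTCC with any 2 bases between, was in 4.59% of the higher, 0% of the lower and 1.61% of the described. The other 7 motifs (CCAAT box, CHR, ISRE core, CRE, T-box, E2F and p53) stood at most 4.25 percentage points from the described genes in either set. These shares have no test behind them, and the 12 motifs were chosen with earlier results of these data known. Mean GC content was alike in these sets, 59.7% for the higher, 60.6% for the lower and 61.2% for the described genes. A match is a description of the letters and not a site of binding, and several promoters can belong to 1 gene.

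The targeted gene went against the genotype labels in both pairs. Noc4l (ENSMUSG00000033294) stood at 48.8 FPKM in Het 1, 81.7 in cKO 2, 40.8 in Het 3 and 58.1 in cKO 4, a log2 difference of 0.62 ± 0.14 (SE, 2 libraries per genotype, limma adjusted p = 0.187). Both libraries labelled cKO were above both libraries labelled Het, as for 24% of all described genes. At 48 h, with 1 library per genotype, Noc4l was 99.1 FPKM in Het and 124 in cKO, a log2 ratio of 0.32. The tables hold 1 value per gene, which cannot show the loss of floxed exons, and the names cKO 2 and cKO 4 stand for the libraries labelled cKO throughout. Estimated depth was 20.9 M and 23.9 M fragments in Het 1 and cKO 2, and 24.3 M and 16.5 M in Het 3 and cKO 4. The median counting error of a ratio was 0.066 for cKO 2 against Het 1 and 0.069 for cKO 4 against Het 3. Foxp3 (ENSMUSG00000039521) was 147 FPKM in Het 1, 173 in cKO 2, 278 in Het 3 and 336 in cKO 4, and the 7 regulatory T cell markers summed to between 2852 and 3603 FPKM, with none at 0. The 2 tables may have been normalized separately, so levels set side by side across tables carry that limit.

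Markers of other cells moved with the labels in part. The 12 neutrophil genes summed to 39.8 FPKM in Het 1, 367 in cKO 2, 24.4 in Het 3 and 79.4 in cKO 4, and outside cKO 2 at 72 h nearly all of that was Ltf (lactoferrin), with 7, 8 and 8 of the 12 at 0 in Het 1, Het 3 and cKO 4. The 13 monocyte, macrophage and dendritic cell genes summed to 50.8 FPKM in cKO 2 and to between 1.87 and 3.61 in the other libraries of 72 h. The 10 CD8 T and NK cell genes summed to 90.3 in Het 1, 322 in cKO 2, 18.6 in Het 3 and 126 in cKO 4. The 14 B and plasma cell genes summed to 167, 302, 324 and 507 in the same order, most of it Ighm. Erythroid and platelet genes (10) summed to 27.5, 23.5, 7.45 and 4.36, and stromal and endothelial genes (8) to 83.4, 48.2, 99.8 and 87.6. Every library held both Xist and Y-linked transcripts. At 72 h Eif2s3y was 33.8 in Het 1, 67.5 in cKO 2, 32.5 in Het 3 and 59.4 in cKO 4, and Xist was 107, 55.9, 165 and 113, while at 48 h Eif2s3y was 48.0 in Het and 33.2 in cKO. The part of these in the results below was not tested except where a value without them is given.

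No single gene passed the threshold in the test across all genes. With limma and the table as a term, 0 of the 12488 genes that averaged 1 FPKM or more had an adjusted p under 0.05 (0%), and the smallest adjusted p was 0.106. At an unadjusted p under 0.05 there were 2159 genes (17.3%), of which 1286 were higher in the libraries labelled cKO (10.3%) and 873 lower (6.99%). That split depended on the scaling: after median centring it was 886 higher and 1243 lower, and after quantile normalization 974 and 1145. The fit has 1 residual degree of freedom. Each SE given with a difference comes from this fit. It rests on how far the 2 within-table ratios disagree, moderated towards the variances of all genes, and not on the spread within a genotype. In simulated data with the residual variances of these libraries it recovered none of the genes with a log2 change of 1 or of 2 after adjustment, and large changes may thus be present despite the count of 0. The words higher and lower below are therefore values of the libraries and not calls.

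Agreement between the pairs was partial. Over the 9331 genes the 2 ratios correlated at r = 0.558 (Pearson) and 0.504 (Spearman), across genes that are not independent and within libraries that share their table. Both ratios were above 0 for 3949 genes (42.3%), both below 0 for 2398 (25.7%) and the signs differed for 2984 (32%). Both libraries labelled cKO were above both labelled Het for 2239 genes (24%) and below both for 1320 (14.1%). The pair of replicates 1 and 2 was the wider one, with an SD of 0.59 over genes and 695 genes past 2-fold, 360 higher (3.86%) and 335 lower (3.59%). For cKO 4 against Het 3 the SD was 0.439, and 345 genes were past 2-fold, 213 higher (2.28%) and 132 lower (1.41%). The 2 Het libraries differed from each other with an SD of 0.406 and 250 genes past 2-fold, and cKO 4 from cKO 2 with an SD of 0.634 and 748 genes. The pair at 48 h had an SD of 0.286, with 46 genes at least 2-fold higher (0.493%) and 43 lower (0.461%). Thus cKO 2 and cKO 4 stood farther apart by this measure than the 2 Het libraries, both compared across the tables. Their SD was also above that of either against its own Het library. Those latter ratios are within a table, and the tables may have been normalized separately, so the 2 kinds of SD are not alike.

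The genes fell into classes by these ratios. At least 2-fold higher in both pairs were 117 genes (1.25%), and at least 2-fold lower in both were 73 (0.782%). After median centring these counts were 94 and 90, and after quantile normalization 97 and 95. A further 55 genes went in opposite directions by at least 0.5 each (0.589%), 21 with the higher ratio in replicates 1 and 2 and 34 with it in 3 and 4. Past 2-fold in replicates 1 and 2 but under 0.5 in 3 and 4 were 148 higher genes (1.59%) and 144 lower (1.54%). The reverse held for 47 higher (0.504%) and 21 lower genes (0.225%). Both ratios were under 0.25 in size for 3264 genes (35%), and the remaining 5462 lay in between. Leaving out marker genes of other cells, sex-linked genes and genes low in cKO 4 alone, the counts higher, lower and opposite were 114, 63 and 47. Just inside the level threshold were Usp49 with a mean of 5.003 FPKM and Gad1 with 5.004, and just outside were Csgalnact2 and Btbd9, both with 4.995.

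**Figure D1:**
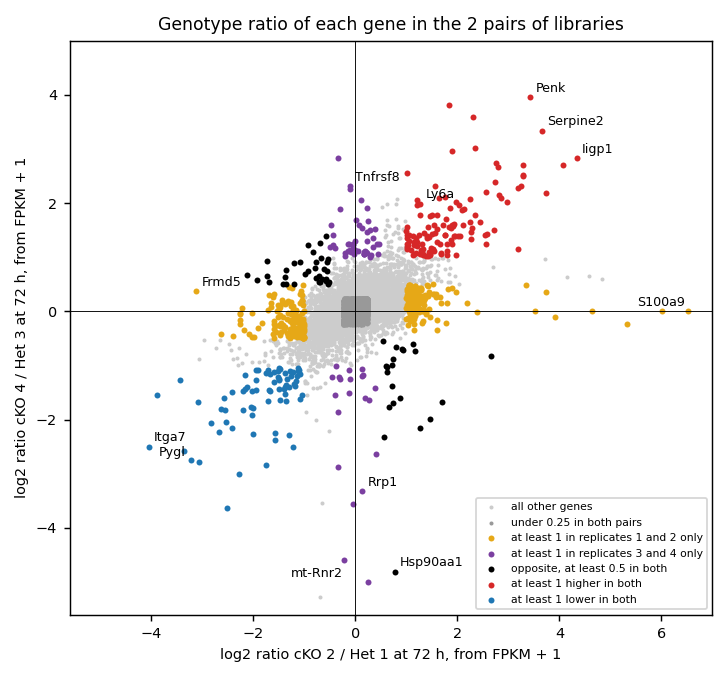
Each point is 1 of the 9331 described genes. The x axis is the log2 ratio of cKO 2 to Het 1 and the y axis that of cKO 4 to Het 3, both at 72 h from FPKM + 1, with colours for the classes of the text. The 117 red and 73 blue genes lie past 1 in both pairs, yellow and purple genes lie past 1 in a single pair, and Hsp90aa1, mt-Rnr2 and Rrp1 lie far below 0 on the y axis only.

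Of the genes higher in both pairs, Penk, the precursor of the enkephalin peptides, had the largest smaller ratio, 3.43. It was at 2.64 FPKM in Het 1, 38.3 in cKO 2, 0.758 in Het 3 and 26.2 in cKO 4. Both libraries labelled cKO lay far above both labelled Het, a log2 difference of 3.69 ± 0.19 (SE, 2 libraries per genotype, limma adjusted p = 0.106). Of the 19 described cytokine and chemokine genes of a list of 44, 12 were higher and 2 lower in both pairs, or 63.2% and 10.5% against 42.3% and 25.7% over all described genes. The median ratios of the list were 0.42 and 0.59, against 0.06 and 0.06 over all genes. They depended on the filter, with 1.46 and 0.89 over the 30 list genes averaging at least 1 FPKM and 0.16 and 0.29 over the 14 averaging at least 10. Tnfsf4 (OX40 ligand), a costimulatory ligand of the TNF family, stood at 1.66 FPKM in Het 1, 17.6 in cKO 2, 1.496 in Het 3 and 10.03 in cKO 4. Tnfsf8, the ligand of CD30, stood at 9.78 FPKM in Het 1, 42.6 in cKO 2, 12.8 in Het 3 and 35.2 in cKO 4. In both of these the Het libraries were close to each other and the libraries labelled cKO well above them. Cd40lg, which activates B cells and dendritic cells, was 2.68 and 2.50 FPKM in Het 1 and Het 3 and 12.6 and 7.29 in cKO 2 and cKO 4. The chemokine Ccl4 was 1.52 and 0.997 in Het against 11.9 and 5.89. Osm (oncostatin M) was the reverse, with 79.3 and 110.0 in Het against 37.7 and 67.8. The chemokine Ccl22 was uneven: it was 71.1 FPKM in cKO 2 and at most 1.53 in the other 3 libraries.

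Costimulatory and inhibitory receptors gave 13 of 28 described genes higher and 3 lower in both pairs, with medians of 0.08 and 0.36. The share higher, 46.4%, was near the 42.3% of all described genes, and the share lower was 10.7% against 25.7%. Cd200, an inhibitory ligand, was at 16.5 FPKM in Het 1, 102 in cKO 2, 16.7 in Het 3 and 80.6 in cKO 4. The Het libraries agreed closely, and the difference was 2.38 ± 0.15 (SE, limma adjusted p = 0.106). Cd83, an activation marker of T and B cells, was at 2.36 FPKM in Het 1, 32.04 in cKO 2, 1.11 in Het 3 and 11.004 in cKO 4, with the higher of the 2 values in cKO 2, where the B cell gene Pax5 was also highest. Tnfrsf9 (4-1BB), a receptor of activated regulatory T cells, was 338 and 247 in Het against 604 and 445 in those labelled cKO. Cd86 was lower in both, with 15.5 and 14.5 against 6.502 and 7.63. Other receptors of the list were high in cKO 4 alone. Tigit stood at 49.8 FPKM in Het 1, 48.1 in cKO 2, 87.97 in Het 3 and 199 in cKO 4, and Lag3 at 42.9 FPKM in Het 1, 54.6 in cKO 2, 56.4 in Het 3 and 147 in cKO 4; both are inhibitory receptors. Icos, which sustains effector regulatory T cells, was lower in cKO 2 than in Het 1 (101 against 135) and higher in cKO 4 than in Het 3 (368 against 197).

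Early response genes of the T cell receptor gave 18 of 32 higher and 6 lower in both pairs (medians 0.45 and 0.23), or 56.2% and 18.8% beside 42.3% and 25.7% of all described genes. Nr4a3, a nuclear receptor induced within hours of stimulation, was at 10.05 FPKM in Het 1, 104 in cKO 2, 3.75 in Het 3 and 22.8 in cKO 4. The zinc finger factor Egr2 stood at 2.75 and 1.71 FPKM in Het against 28.3 and 9.98 in those labelled cKO, and Egr1 was 4.41 and 2.32 against 24.9 and 8.21. Socs3, a feedback inhibitor of cytokine signals, lay the other way, at 337 FPKM in Het 1, 120.4 in cKO 2, 736 in Het 3 and 412 in cKO 4. At 48 h Nr4a3 was higher than in any of the 4 libraries of 72 h, with 136 in Het and 143 in cKO. Egr2 at 48 h was 14.5 and 17.98, inside the range of the libraries labelled cKO at 72 h and above both labelled Het.

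Transcription factors of T cell differentiation split both ways. Of 42 described, 21 were higher and 9 lower in both pairs, and the medians were 0.25 and 0.23. These shares, 50% and 21.4%, were near the 42.3% and 25.7% of all described genes. Tbx21 (T-bet), which drives the type 1 programme, was at 2.04 FPKM in Het 1, 26.7 in cKO 2, 2.23 in Het 3 and 14.8 in cKO 4, a difference of 2.74 ± 0.27 (SE, limma adjusted p = 0.106). Eomes, a related T-box factor, was at 3.76 FPKM in Het 1, 14.999 in cKO 2, 0.199 in Het 3 and 4.18 in cKO 4. Both were higher in both pairs, as were the CD8 T and NK cell markers Gzma, a granule protease, at 14.04 FPKM in Het 1, 74.9 in cKO 2, 1.92 in Het 3 and 22.8 in cKO 4, and Nkg7, a granule membrane protein, at 29.1 FPKM in Het 1, 148 in cKO 2, 6.48 in Het 3 and 89.1 in cKO 4. The defining marker Cd8a was 20.3 and 39.03 FPKM in Het 1 and cKO 2 but 1.01 and 2.24 in Het 3 and cKO 4. In the order Het 1, cKO 2, Het 3 and cKO 4, Klrd1 was 4.84, 14.4, 0 and 0.453 and Klrk1 3.93, 16.9, 0.308 and 1.29. Cd8b1 was 11.5, 19.1, 4.69 and 4.47 and Prf1 6.1, 7.71, 4.06 and 5.44. Ncr1, Klre1 and Klrb1c were at most 1.24 in every library of 72 h. Irf4, an activation factor of effector regulatory T cells, was 35.2 and 25.05 in Het against 97.4 and 66.1. Irf1 was 67.7 and 123 against 237 and 252, and Irf8 71.8 and 35.01 against 395 and 113, with the largest value in cKO 2. Of the lower ones, Klf2, which keeps T cells quiescent and recirculating, was at 165 FPKM in Het 1, 56.5 in cKO 2, 243 in Het 3 and 104 in cKO 4. Klf3 stood at 65.1 and 78.2 in Het against 28.5 and 31.5 in those labelled cKO, and Id3, an inhibitor of E proteins, at 117 and 93.3 against 38.05 and 42.5. In each of the 3, the groups did not overlap, which held in this direction for 14.1% of all described genes.

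Antigen presentation by MHC class I lay in 1 direction. All 17 described genes of the class I and immunoproteasome list were higher in both pairs, (42.3% over all genes), with medians of 0.84 and 0.43, although none was 2-fold higher in both. B2m, the light chain of class I molecules, was at 803 FPKM in Het 1, 1700.0 in cKO 2, 1075 in Het 3 and 1878 in cKO 4, a difference of 0.94 ± 0.14 (SE, limma adjusted p = 0.129). Tap1, which pumps peptides into the endoplasmic reticulum, was 119 and 155 in Het against 219.9 and 242 in those labelled cKO. The immunoproteasome subunit Psmb9 was 132 and 128 against 249.5 and 211. Nlrc5, which switches on class I genes, was 82.5 and 155 in the first pair and 169 and 259 in the second, so that Het 3 was above cKO 2 and the groups overlapped across tables. The 31 genes of the standard proteasome followed with 30 higher in both pairs, at medians of 0.49 and 0.19. Psma4, a subunit of the core ring, was 129 in Het 1 and 233 in cKO 2, but 90.8 in Het 3 and 115 in cKO 4, and cKO 4 did not reach Het 1. Iigp1, an interferon-induced GTPase, was among the 15 genes with the largest smaller ratio, and Ly6a (Sca-1), an interferon-induced surface antigen, among the 5 most abundant genes 2-fold higher in both. Iigp1 was at 3.34 FPKM in Het 1, 86.95 in cKO 2, 12.8 in Het 3 and 97.4 in cKO 4 and Ly6a at 218 FPKM in Het 1, 529 in cKO 2, 186 in Het 3 and 740.1 in cKO 4. MHC class II genes differed among themselves. Cd74, the invariant chain, was 7.796 and 3.32 in Het against 147 and 27.4. H2-Ab1 was 91.4 in cKO 2 and 5.96 in cKO 4, both below their Het libraries at 115 and 49.9. Its ratio was only -0.33 in replicates 1 and 2, against -2.87 in 3 and 4. H2-Ab1 was also among the 41 genes, described further on, at least 2-fold lower in cKO 4 than in each other library of 72 h.

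The remaining genes with the largest smaller ratio among the higher ones had varied roles. Serpine2, a protease inhibitor, was at 2.903 FPKM in Het 1, 48.02 in cKO 2, 1.12 in Het 3 and 20.4 in cKO 4. Pik3r3, a regulatory subunit of phosphoinositide 3-kinase, was at 1.36 FPKM in Het 1, 15.04 in cKO 2, 2.47 in Het 3 and 22.2 in cKO 4, with ratios of 2.76 and 2.74 that were nearly equal. Ckmt1 (mitochondrial creatine kinase), Cox6b2 (a cytochrome c oxidase subunit), Lad1 (ladinin) and Sulf2 (a sulfatase of heparan sulfate) had ratios between 2.39 and 3.30. For all 4 the pair of replicates 1 and 2 had the larger ratio. Of the 5 most abundant genes 2-fold higher in both, the cell cycle inhibitor Cdkn1a (p21), a p53 target, was 134 and 74.9 in Het against 271 and 201, and cKO 2 and cKO 4 were both above both Het libraries. The insulin-family peptide Rln3 was 64.8 and 51.9 against 184 and 180.4.

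**Figure D2:**
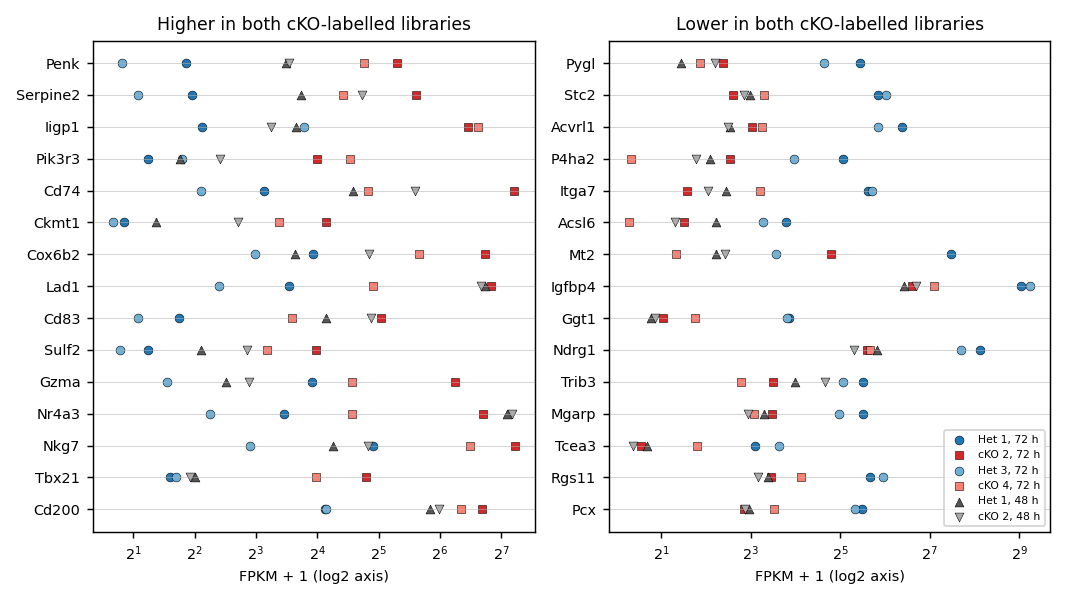
FPKM + 1 on a log2 axis for the 15 genes higher (left) and the 15 genes lower (right) in both pairs with the largest smaller ratio. Circles are Het and squares cKO at 72 h, and triangles are the 2 libraries of 48 h; in the right panel the 48 h values of Stc2, Igfbp4 and Acvrl1 lie beside the libraries labelled cKO, and away from Het.

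The genes lower in both pairs included most of the list of responses to low oxygen. HIF is the transcription factor that is stabilized when oxygen is scarce and switches on glucose uptake, glycolysis and collagen hydroxylases. Of 26 listed HIF and hypoxia targets 22 were described. Of these, 21 were lower in both pairs (95.5%), 9 of them at least 2-fold, with medians of -1.03 and -1.15. Over all described genes 25.7% were lower in both pairs and 0.782% at least 2-fold lower. At an unadjusted limma p under 0.05, 19 of the targets were lower and 0 higher, and none passed after adjustment. The background was 6.99% lower over all tested genes. Ndrg1, a stress-responsive gene, was at 279 FPKM in Het 1, 47.1 in cKO 2, 208 in Het 3 and 49.9 in cKO 4, a difference of -2.29 ± 0.18 (SE, limma adjusted p = 0.106). The collagen prolyl hydroxylase P4ha2 was at 32.6 FPKM in Het 1, 4.83 in cKO 2, 14.5 in Het 3 and 0.2595 in cKO 4, and cKO 4 was the lowest library. Its relative P4ha1 was at 121 FPKM in Het 1, 46.2 in cKO 2, 134 in Het 3 and 51.8 in cKO 4, with nearly equal ratios of -1.37 and -1.35. The angiogenic factor Vegfa was 70.96 and 52.98 in Het against 20.4 and 6.54 in those labelled cKO. Bnip3, a receptor for the removal of mitochondria, was 405 and 279 against 143 and 134, and Egln3, the oxygen-sensing hydroxylase that HIF itself induces, 96.6 and 62.2 against 36.1 and 22.4. In each of these genes both Het libraries were above both libraries labelled cKO, an order found for 14.1% of all described genes. Kdm3a, Plod2 and Mxi1 showed smaller ratios in the pair of 3 and 4, between -0.32 and -0.25, and Plod1 was the 1 gene with differing signs (-0.39 and 0.07). The targets P4ha2, Vegfa, Slc2a3 and Hk2 were also among the 41 genes at least 2-fold lower in cKO 4 than in each other library of 72 h, which include ribosomal RNAs and are described further on. Without these 4, an alternative chosen after seeing the data, 17 of 18 targets were lower in both pairs, 6 of them at least 2-fold, with medians of -0.94 and -1.02. Of the 73 genes 2-fold lower in both pairs, 10 belonged to the 41.

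Other genes of carbon metabolism gave further large values. Pygl, the phosphorylase that breaks down glycogen, was at 42.5 FPKM in Het 1, 4.23 in cKO 2, 23.9 in Het 3 and 2.62 in cKO 4, a difference of -2.92 ± 0.15 (SE, limma adjusted p = 0.106). Pcx, pyruvate carboxylase, was at 44.1 FPKM in Het 1, 6.26 in cKO 2, 39.2 in Het 3 and 10.5 in cKO 4. The lactate exporter Slc16a3 was at 445 FPKM in Het 1, 184 in cKO 2, 272 in Het 3 and 119 in cKO 4, and the acyl-CoA synthetase Acsl6 at 12.9 FPKM in Het 1, 1.86 in cKO 2, 8.71 in Het 3 and 0.214 in cKO 4. The groups did not overlap for these 4, all at least 2-fold lower in both pairs. Both libraries labelled cKO were below both labelled Het for 14.1% of all described genes. Acsl6 was also among the 41 genes lowest in cKO 4. The glucose transporter Slc2a3 was 239 and 144 in Het against 92.3 and 45.1 in those labelled cKO. The tricarboxylic acid cycle, by contrast, had 15 of 21 genes higher and 1 lower in both pairs (71.4% and 4.8%, beside 42.3% and 25.7% of all described genes), at medians of 0.26 and 0.15, with Suclg2 at 1.04 and 0.58. Fatty acid oxidation had 11 of 22 higher and 5 lower (50% and 22.7%, near the shares of all genes), at medians of 0.02 and 0.14, the first of which changed sign under other settings.

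The remaining genes with the largest smaller ratio among the lower ones also had varied roles. Igfbp4, which binds insulin-like growth factors, was at 521 FPKM in Het 1, 96.9 in cKO 2, 606 in Het 3 and 136 in cKO 4. Stc2, a secreted glycoprotein, was at 56.2 FPKM in Het 1, 5.102 in cKO 2, 64.2 in Het 3 and 8.76 in cKO 4, and Ggt1, which cleaves extracellular glutathione, at 13.6 FPKM in Het 1, 1.06 in cKO 2, 13.1 in Het 3 and 2.38 in cKO 4. Trib3, a pseudokinase of the stress response, was at 44.5 FPKM in Het 1, 10.4 in cKO 2, 32.5 in Het 3 and 5.93 in cKO 4, although others of the integrated stress response list were higher. Sesn2, which restrains growth under stress, had ratios of 1.93 and 1.61. Cebpb, a leucine zipper factor, was 4.16 and 8.15 in Het against 11.001 and 34.95. The metallothionein Mt2, which binds zinc, was at 175 FPKM in Het 1, 26.8 in cKO 2, 10.8 in Het 3 and 1.53 in cKO 4, where cKO 2 lay above Het 3 and the groups overlapped across the tables although both ratios were below -2. Mt2 too was among the 41 genes lowest in cKO 4. Mgarp, a mitochondrial protein, Tcea3, an elongation factor, and Rgs11, which shortens G protein signals, had ratios between -2.57 and -1.82.

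Cytokine receptors were divided, with 11 of 31 higher and 18 lower in both pairs, or 35.5% and 58.1% beside 42.3% and 25.7% of all described genes. Acvrl1, a receptor of the TGF-beta family, was at 81.998 FPKM in Het 1, 7.14 in cKO 2, 56.1 in Het 3 and 8.59 in cKO 4, and Acvr1b, an activin receptor, at 25.02 FPKM in Het 1, 7.56 in cKO 2, 23.8 in Het 3 and 9.06 in cKO 4. Of the same family, Tgfbr3 was at 2.42 FPKM in Het 1, 9.31 in cKO 2, 2.95 in Het 3 and 12.7 in cKO 4 and Tgfbr1 at 34.3 FPKM in Het 1, 68.5 in cKO 2, 42.2 in Het 3 and 97.9 in cKO 4, both higher in the libraries labelled cKO. The interleukin 12 receptor chains Il12rb1 (19.2 and 23.1 in Het against 45.02 and 50.03) and Il12rb2 (4.56 and 2.23 against 18.4 and 5.99) were higher too. The interleukin 18 receptor chains were lower: Il18rap was 16.2 and 24.8 against 5.0998 and 8.51, and Il18r1 72.1 and 136 against 13.7 and 67.6. For Il18r1, cKO 4 came close to Het 1, and the groups stayed apart by less than the gap between the 2 Het libraries. Il2ra, the high-affinity interleukin 2 receptor chain, had ratios of only -0.25 and -0.09.

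Adhesion genes were uneven between the pairs. The integrin and extracellular matrix list had 3 of 25 genes 2-fold higher and 3 2-fold lower in both pairs. Over all described genes these shares were 1.25% and 0.782%. The medians of the list were -0.55 and 0.06, the second of which changed sign under other settings. Itga7, a laminin receptor, was at 48.1 FPKM in Het 1, 1.97 in cKO 2, 51.6 in Het 3 and 8.27 in cKO 4. Itgb5 was 29.9 and 27.1 in Het against 1.84 and 10.7 in those labelled cKO. Itgb8, which pairs with integrin alpha V to activate TGF-beta, was higher, with 1.98 and 3.47 against 7.63 and 12.4. Anxa2, a membrane-binding annexin, was at 552 FPKM in Het 1, 63.9 in cKO 2, 293 in Het 3 and 90.9 in cKO 4.

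The 48 h libraries, which took no part in the choice of these classes, differed in the same directions on the median, but by less. The 117 genes higher in both pairs at 72 h had a median 48 h ratio of 0.277, and 84 of them were above 0 (71.8%). The 73 lower genes had a median of -0.2, and 47 were below 0 (64.4%). Over all 9331 genes the median was -0.007, with 48.5% above 0 and 51.5% below. At 48 h there was 1 library per genotype, so these are values without a test, and the pair of 48 h was in the same table as replicates 1 and 2. The classes were chosen for their size at 72 h, which by itself favours smaller values at 48 h. The HIF and hypoxia targets had a 48 h median of -0.21, with 18 of 22 below 0. Lists differed in this: early response genes had 0.41 at 48 h, with 30 of 32 above 0, beside 0.45 and 0.23 at 72 h. Mitosis genes had -0.30, with 28 of 28 below 0, beside -0.68 and -0.42. The tricarboxylic acid cycle had -0.06, beside 0.26 and 0.15.

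The levels at 48 h lay mostly beside the library labelled cKO for the lower genes. Of the 73, 68 had both 48 h values nearer to cKO 2 than to Het 1 at 72 h, and 1 had both nearer to Het 1. For all 9331 genes these counts were 4391 and 1288. The medians over the 73 genes were 8.84 and 6.84 FPKM in Het and cKO of 48 h, 44.5 in Het 1 and 30.6 in Het 3, and 8.17 in cKO 2 and 8.96 in cKO 4. Of the genes higher in both, 45 lay nearer to cKO 2 and 44 nearer to Het 1, and their medians were 11.7 and 14.8 at 48 h, 5.07 and 4.48 in Het at 72 h and 24.7 and 16.2 in cKO 2 and cKO 4. Igfbp4 may stand for the first group, with 84.9 and 102 FPKM in Het and cKO of 48 h. Serpine2 lay between, with 12.3 and 25.6.

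**Figure D3:**
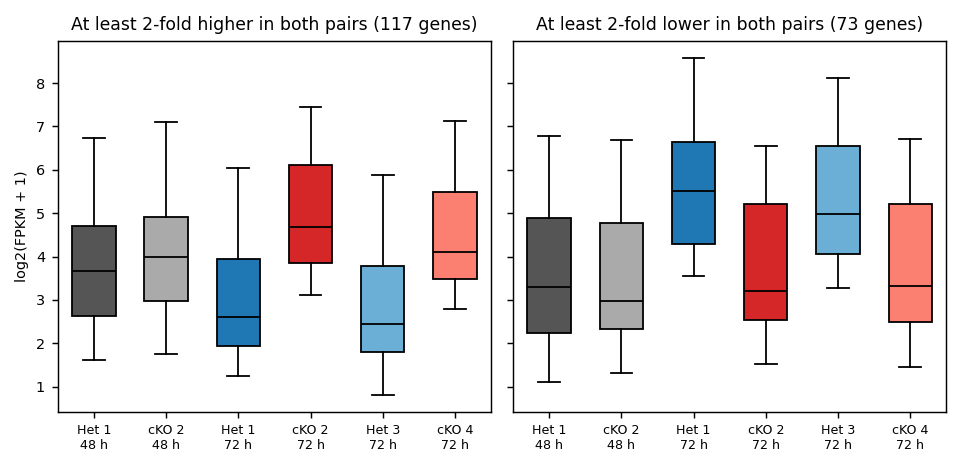
Box plots of log2(FPKM + 1) over the 117 genes at least 2-fold higher (left) and the 73 at least 2-fold lower (right) in both 72 h pairs, for each of the 6 libraries. Lines are medians, boxes the quartiles and whiskers the 5th to 95th percentile; in the right panel both 48 h libraries and both libraries labelled cKO at 72 h have low medians, and the Het libraries of 72 h stand above them. The 72 h differences follow from how the genes were chosen.

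Several lists differed mainly in the pair of replicates 1 and 2. The actin cytoskeleton, annexin and S100 list had medians of -0.56 and -0.01 in the pairs (the second changed sign under other settings). Of its 29 genes 13 were lower in both (44.8%) and none was higher in both, beside 25.7% and 42.3% of all described genes. Vim (vimentin), an intermediate filament protein, was at 2297 FPKM in Het 1, 799 in cKO 2, 2137 in Het 3 and 1978 in cKO 4. S100a10 was at 923 FPKM in Het 1, 324 in cKO 2, 679.6 in Het 3 and 734 in cKO 4, and Lgals3 (galectin 3) at 185 FPKM in Het 1, 65.4 in cKO 2, 97.8 in Het 3 and 104 in cKO 4. In all 3 cKO 2 stood alone below the other libraries, while cKO 4 was close to Het 3. The 48 h values lay with cKO 2, at 746 and 744 for Vim. Of all 144 genes lower in that pair alone, 122 had both 48 h values nearer to cKO 2 than to Het 1.

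Growth genes showed the same dependence on a pair with the opposite sign. Heat shock genes had medians of 0.71 and 0.08, purine and pyrimidine synthesis 0.58 and 0.13, translation factors 0.51 and 0.04 and ribosome assembly 0.97 and -0.02. The second median of the translation factors changed sign under other settings. Hspd1, the mitochondrial chaperonin, was at 139 FPKM in Het 1, 417 in cKO 2, 110.2 in Het 3 and 133 in cKO 4. Cad, which starts pyrimidine synthesis, was 69.9 in Het 1 and 173 in cKO 2, but 68.9 in Het 3 and 91.5 in cKO 4. Npm1, a nucleolar protein, was 579.6 and 1348 in the first pair and 419 and 469 in the second. At 48 h these 3 genes were near cKO 2 in both genotypes, as with Npm1 at 1296 in Het and 1308 in cKO. Mitochondrially encoded messenger RNAs had 9 of 9 described genes higher in both pairs (42.3% over all described genes), with medians of 1.06 and 0.34.

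Of the genes higher in that pair alone, those with the largest ratios are known from other cells. S100a9 and S100a8, calcium-binding proteins of neutrophils, were at 90.7 and 75.9 FPKM in cKO 2 and at most 0.194 in the other 3 libraries of 72 h. They were at 110 and 81.2 in the library labelled cKO at 48 h, also a replicate 2. Pax5, the B cell factor, was at 0.746 FPKM in Het 1, 25.2 in cKO 2, 0.128 in Het 3 and 0.0474 in cKO 4. On the lower side Frmd5 was at 15.8 FPKM in Het 1, 0.9397 in cKO 2, 42.5 in Het 3 and 55.4 in cKO 4, and Il1rl1 (ST2), the interleukin 33 receptor of tissue regulatory T cells, at 12.4 FPKM in Het 1, 1.79 in cKO 2, 32.7 in Het 3 and 29.3 in cKO 4. For both, cKO 2 was the lowest library and the second pair differed little.

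Genes higher in the pair of 3 and 4 alone included a suppressive cytokine and surface receptors. Il10 (interleukin 10) was at 7.77 FPKM in Het 1, 6.11 in cKO 2, 7.47 in Het 3 and 30.3 in cKO 4. Itgae (CD103), an integrin that binds E-cadherin, was at 13.5 FPKM in Het 1, 15.9 in cKO 2, 22.4 in Het 3 and 87.2 in cKO 4, and Tnfrsf8 (CD30) at 10.7 FPKM in Het 1, 9.902 in cKO 2, 11.8 in Het 3 and 62.4 in cKO 4. In each, cKO 4 stood alone above the other 3 libraries. Ttc39c and Angptl2 followed, with ratios of 2.07 and 1.68 in that pair and 0.12 and 0.00 in the other. The chemokine, lipid and nucleotide receptors had medians of -0.07, which changed sign under other settings, and 0.44. Cxcr6, a tissue homing receptor, was 17.5 in cKO 4 and between 4.897 and 5.16 in the others. Ccr8, a receptor of activated regulatory T cells, was higher in both pairs, at 33.9 FPKM in Het 1, 109 in cKO 2, 27.9 in Het 3 and 67.6 in cKO 4, and S1pr1, the receptor for exit from lymph nodes, was lower in both, at 129 FPKM in Het 1, 42.9 in cKO 2, 154 in Het 3 and 99.1 in cKO 4.

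Some transcription factors and other genes went in opposite directions. Maf, a factor that drives Il10, was at 23.6 FPKM in Het 1, 10.6 in cKO 2, 59.2 in Het 3 and 113 in cKO 4. Prdm1 (Blimp-1), which marks effector regulatory T cells, was at 14.03 FPKM in Het 1, 6.57 in cKO 2, 19.6 in Het 3 and 32.4 in cKO 4. For both, cKO 2 was the lowest library and cKO 4 the highest, and both Het libraries lay between. Fam20a, Cpe, Maged1, Ston2 and Acot11, of the same direction, had ratios between -1.73 and -1.19 in the first pair and between 0.55 and 0.89 in the second. Mir6999 and Snord89, short RNA genes, had opposite ratios as well, -2.13 and 0.67 and -1.74 and 0.94. The strand setting is not stated, and reads of genes that overlap them cannot be told apart from theirs.

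A set of 41 genes was at least 2-fold lower in cKO 4 than in each other library of 72 h, and this set was noticed after the values were seen. It overlapped the genes lower in both pairs, with 10 of the 73. The mitochondrial ribosomal RNAs were the extreme: mt-Rnr2 was at 239 FPKM in Het 1, 282 in cKO 2, 219.5 in Het 3 and 5.88 in cKO 4, and mt-Rnr1 at 327 FPKM in Het 1, 278 in cKO 2, 224 in Het 3 and 8.27 in cKO 4. Of 5 described ribosomal RNA genes 3 were at least 2-fold lower in the pair of 3 and 4. All 8 described genes named Rrp, which process ribosomal RNA, were at least 2-fold lower there, with ratios from -3.33 to -1.59, while in the other pair their median was 0.65. Rrp1 was at 151 FPKM in Het 1, 166 in cKO 2, 125 in Het 3 and 11.5 in cKO 4, and Rrp9 at 37.6 FPKM in Het 1, 91.8 in cKO 2, 38.5 in Het 3 and 7.89 in cKO 4. Of 2 other families of ribosomal RNA processing, 0 of 9 Utp genes and 1 of 9 Exosc genes (Exosc5) were 2-fold lower, while the set also held Emg1, which modifies ribosomal RNA, and Dis3.

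Other genes of the set had no such name in common. Hsp90aa1, a cytosolic chaperone, was at 524 FPKM in Het 1, 895 in cKO 2, 376 in Het 3 and 12.5 in cKO 4, while its close relative Hsp90ab1 was at 2533 FPKM in Het 1, 4287 in cKO 2, 1909 in Het 3 and 2138 in cKO 4. Rpl12, a protein of the large ribosomal subunit, was at 1081 FPKM in Het 1, 1053 in cKO 2, 763 in Het 3 and 63.8 in cKO 4. Dis3, the exosome nuclease, was 1.96 in cKO 4 and at least 9.03 in the others. Beside these 41 genes, 48 were at least 2-fold higher in cKO 4 than in each other library. For cKO 2 these counts were 132 and 112, for Het 1 14 and 16 and for Het 3 20 and 2. At 48 h both values were nearer to the lowest of the other 3 libraries than to cKO 4, or above it, for 31 of the 41, as with Hsp90aa1 at 1031 and 894. For 5 genes neither was, as with Slc2a3 at 41.6 and 38.7, and for 5 only 1 was. What set this library apart in these genes was not tested.

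**Figure D4:**
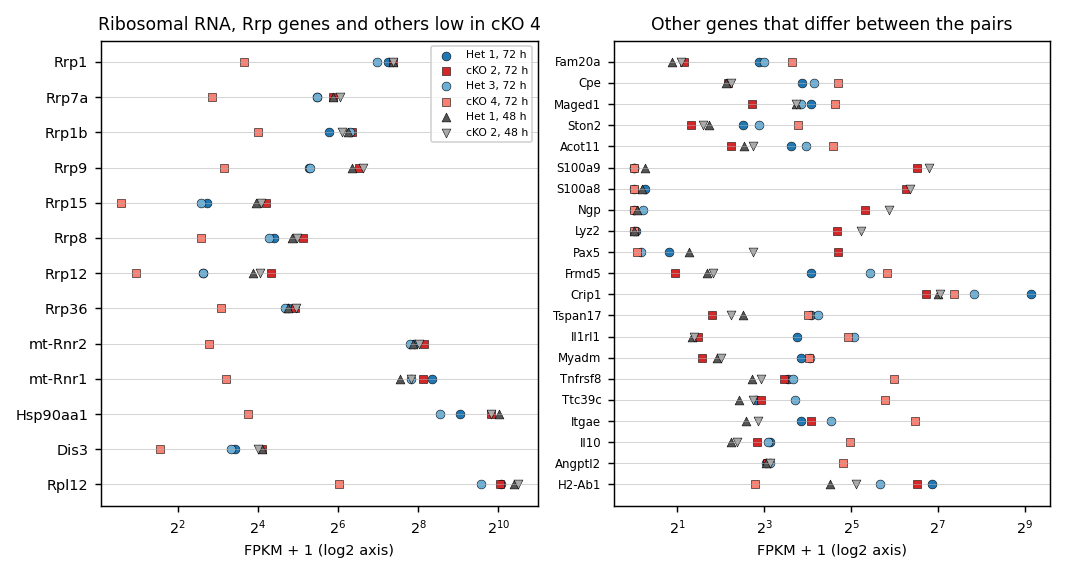
FPKM + 1 on a log2 axis in each library for genes that differ between the 2 pairs. Left, the 8 Rrp genes, the mitochondrial ribosomal RNAs and 3 further genes, with cKO 4 (light square) far to the left of the other points; right, other genes named by size, in which cKO 2 or cKO 4 stands apart from the rest.

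Across the 30 lists, several further medians had 1 direction in both pairs. The p53 targets were at 0.98 and 0.68 and glycolysis at -0.53 and -0.82. Mitosis genes were at -0.68 and -0.42 with 28 of 28 lower in both (25.7% over all described genes). NF-kappaB factors were at 0.47 and 0.23, with 14 of 20 higher in both (70%, beside 42.3% of all described genes). Nfkb2 was 24.1 and 28.4 in Het against 83.5 and 49.4. Lysosome genes were at 0.08 and 0.28, with Ctsw, a cathepsin of lymphocytes, at 53.5 and 57.7 against 119.7 and 137. Medians near 0 in both pairs belonged to DNA replication (0.06 and 0.08), autophagy (-0.04 and 0.05) and antioxidant genes (0.05 and -0.05), and each of these lists had a median that changed sign under some setting. In a bulk library, fewer cells of a type and less RNA per cell cannot be told apart.

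**Figure D5:**
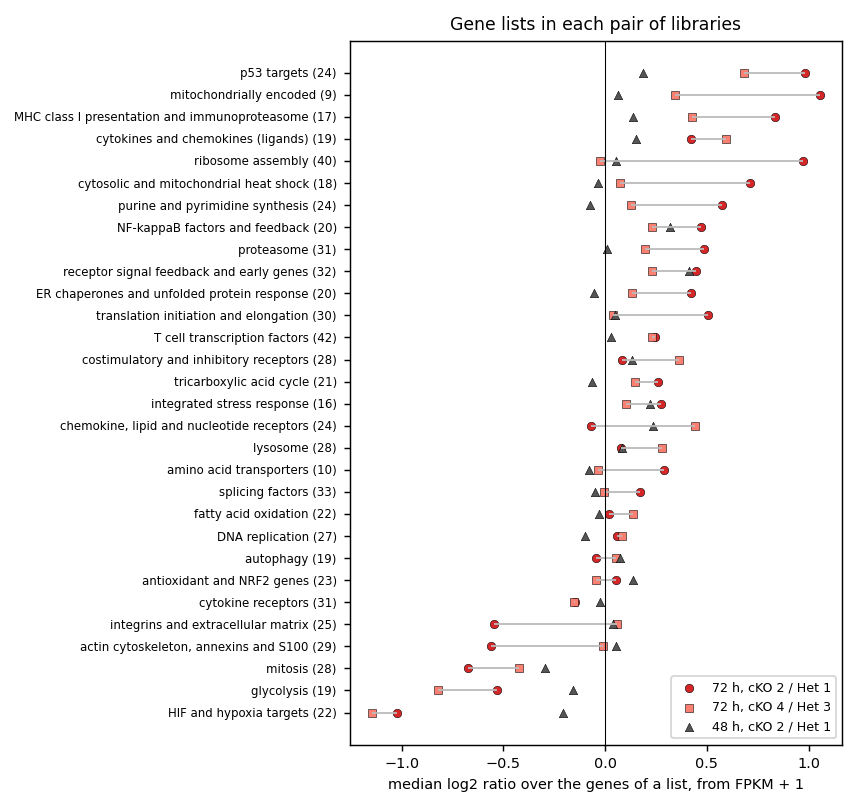
Median log2 ratio, from FPKM + 1, over the described genes of each of 30 gene lists (number of genes in brackets), for the 72 h pair of replicates 1 and 2 (circles), the 72 h pair of 3 and 4 (squares) and the 48 h pair (triangles). Grey lines join the 2 pairs of 72 h. They are short for HIF targets and cytokine receptors and long for ribosome assembly, heat shock and actin cytoskeleton genes.

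The most abundant genes with ratios under 0.25 in both pairs were Actb, Eef1a1, Rplp1, Rps14 and Rps16. Actb (beta actin) was at 10173 FPKM in Het 1, 9411 in cKO 2, 9425 in Het 3 and 7940.5 in cKO 4. Their log2 differences lay between -0.18 and 0.06, with SE from 0.13 to 0.14. Agreement between the pairs held over the whole range of levels: r was 0.513 for 1610 genes averaging 5 to 10 FPKM, 0.563 for 3484 genes of 10 to 30, 0.612 for 3006 genes of 30 to 100 and 0.5 for 1231 genes of 100 or more. The share of genes 2-fold higher in both was largest in the lowest range, 2.98% against 0.65% in the highest, and the share 2-fold lower was 0.932% and 0.894%.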

How the data were processed

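RNA was measured in 6 libraries made with the SMART-Seq v4 low-input kit, per the labels' protocols. The deposited values were FPKM in 2 tables. The submitters' processing notes name Bowtie2 2.2.3, TopHat2 2.0.12, HTSeq 0.6.1 and the build mm9. The role of each tool, the gene models and the strandedness were not given in the sources used here. The tables shared 47347 rows, 47069 with an Ensembl ID (46488 matched a symbol and 581 did not), and 278 others were left out. No rescaling was applied, and FPKM summed to between 624503 and 702855 per library. Depth was estimated because low values were near whole fragments: 86.1% to 87.2% lay within 0.02 of a whole number.

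Ratios were taken as log2(FPKM + 1) within a table, which understates differences of low genes. Genotype was tested with limma 3.58.1 in R 4.3.3, with the table as a term and moderated variances with a trend, over genes averaging 1 FPKM or more, and p-values were Benjamini-Hochberg adjusted. Simulated data, with 200 genes changed by known amounts, tested the fit. At the noise of these libraries 96% of genes with a log2 change of 1 or 2 had an unadjusted p under 0.05 and 0% passed after adjustment, while at an SD of 0.05 all passed. Named genes were Noc4l and Foxp3, the 15 genes per direction with the largest smaller ratio, the 5 most abundant 2-fold genes per direction, and the largest of each class of disagreement, along with list members by unadjusted p. Some genes that fall under these rules are not reported here. The members, the 30 function lists, the 8 marker lists and the 12 motifs were chosen with earlier results of these data known. Alternatives covered the pseudocount, the filter, scaling, the table term and left-out libraries. Tables were made in Python 3.11.15 (numpy 2.4.6, pandas 2.3.3) and plots with matplotlib 3.10.9. RefSeq promoters were on GRCm38.p6, another build than mm9, and no deposited value was placed on them by position.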

Additional observations from a re-analysis of the deposited data

Results flagged for a closer look

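For 3 of the genes named for their size at 72 h, the genotype ratio at 48 h lay on the other side of 0 by at least 0.5. Pygl, the glycogen phosphorylase, was lower in both libraries labelled cKO at 72 h and had a log2 ratio of 0.76 at 48 h, from 1.73 FPKM in Het and 3.62 in cKO. Trib3, a pseudokinase of the stress response, was lower in both pairs at 72 h and stood at 0.67 at 48 h, from 14.97 and 24.5 FPKM. Ly6a, an interferon-induced surface antigen, was higher in both pairs at 72 h and stood at -0.65 at 48 h, from 67.2 and 42.4 FPKM. An interaction of genotype and time, fitted with limma over 12394 genes of all 6 libraries, gave 0 genes with an adjusted p under 0.05, 708 at an unadjusted p under 0.05 and an adjusted p of 0.742 for each of these 3 genes. With 1 library per genotype at 48 h, the difference between the times is not shown.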

How the results depend on the processing

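The number of genes at least 2-fold higher in both pairs went from 117 to 57 with a pseudocount of 5, to 208 with a mean of at least 1 FPKM and to 69 with a mean of at least 10. Genes in opposite directions went from 55 to 28, 155 and 35 under the same settings, and to 101 after rescaling to TPM. In a single pair, an alternative chosen after seeing the data, the higher count was 360 in replicates 1 and 2 and 213 in 3 and 4, and the lower count 335 and 132 against 73 in both. The count of genes passing limma's adjusted p was 0 in most settings and 8 with no filter beyond a value above 0 (6 higher and 2 lower of 28080). Leaving out each library in turn, which required dropping the table term, gave 0 to 608 genes: 608 without cKO 4, 223 without cKO 2 and 0 without Het 1 or Het 3. The lone library of a genotype is then assumed to vary like the other genotype, and the cause was not tested. The 39 named genes recomputed were all chosen for being at least 2-fold in 1 direction in both pairs. Their direction could thus hardly turn, and none of the 580 recomputed values did. Noc4l, Foxp3 and the genes that differ between the pairs were not recomputed in this way. Of 434 recomputed list medians, 20 were counted as moved. Smaller shifts were not counted, even where they passed the gap between the 2 pairs. The cytokine receptor median in replicates 1 and 2, for instance, went from -0.149 to -0.191 under quantile normalization. The genotypes share no replicate number, and the table term already pairs Het 1 with cKO 2 and Het 3 with cKO 4; without it 0 genes passed and 1120 had an unadjusted p under 0.05, against 2159. Depth of 16.5 M to 24.3 M fragments limits the low genes most, and 1 residual degree of freedom limits every test.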
